A study of Homo sapiens with 6 samples.

Results

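EPH receptors and ephrins were followed in 10 genes, the receptors EPHA1, EPHA2, EPHA4, EPHB2, EPHB3 and EPHB4 and the ligands EFNA1, EFNA4, EFNB1 and EFNB2. They were found by their symbols and are 10 of the 19223 gene symbols in the deposited table and take up 19 of its 45006 transcripts. Where a symbol has several transcripts, the one whose mean over the 6 libraries was highest was used, and the others are given further on. All 10 passed the filter on low values, which asked for 3 or more libraries with a value of 10 or higher. The remaining genes of the family bring it to 22, of which 15 passed that filter.

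EPH receptors are the largest family of receptor tyrosine kinases, and their ligands, the ephrins, are bound to the membrane of the neighbouring cell. Contact therefore signals both ways, forward through the kinase of the receptor and in reverse through the ephrin. Ephrin-A ligands are held by a lipid anchor and bind EPHA receptors, ephrin-B ligands span the membrane and bind EPHB receptors, and EPHA4 takes ligands of both classes. In the intestinal crypt, EPHB2 and EPHB3 are targets of Wnt signalling that are made mainly in the cells near the base, while EFNB1 and EFNB2 are made towards the surface, and the contact between them keeps the cell layers sorted.

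The RNA came from cells labelled LoVo, a long-established human line grown from a colorectal adenocarcinoma. Control libraries came from cells given vehicle, and DCC-2036 libraries from cells given DCC-2036 (rebastinib) at 2.5 μM, in both cases for 48 h by the labels, with 3 libraries in each group. DCC-2036 is a small molecule that blocks ABL1 and further tyrosine kinases by binding the pocket that switches the kinase on. A legend in the published text names a shorter exposure, and the labels and the published methods name different culture media. A single line, dose and time were used, and protein and its phosphorylation were not analysed here. The values are a normalized signal per transcript made by the authors, who adjusted it to a common depth by a method not given in the sources used here, so the reads behind each value are unknown. Totals of the signal were 38997229, 39956227 and 40587145 in Control and 43279603, 45957597 and 48023306 with DCC-2036. Every DCC-2036 total was thus above every Control total. Nothing in the labels says that the 3 libraries of a group came from separately grown cultures, so a p-value measures only the spread between these libraries. With 3 against 3, the smallest p that an exact permutation test can give is 0.1.

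Epithelial markers were read beside the label, and the identity of the line could not be settled from these values. EPCAM had means of 4578 in Control and 5591 with DCC-2036, CDX2 of 296.8 and 286.1, and CDH1 of 1605 and 3444. Of the 12 colon epithelial markers listed, 7 were tested, with KRT8 and CDH1 called higher and KRT20 called lower, from 53.07 to 23.43 (limma, BH-adjusted p = 0.00427). That is 42.9% called, near the 41.9% of all genes, so the number of calls is no result about these markers. CDX1 was listed at 0 in all libraries, and CDH17, VIL1, LGALS4 and CEACAM5 stayed under 10 in all of them. The summed signal of the list was 104485, 108198 and 115000 in Control and 148349, 163491 and 188450 with DCC-2036, most of it KRT8 (mean 84084).

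Lists of markers for other cell types were summed in the same way. Over 8 fibroblast markers, the signal was 442.8, 414.9 and 369.6 in Control and 522.1, 454.1 and 553.9 with DCC-2036, most of it COL1A1 (mean 416.0), and 2 of the 8 were tested. For 6 endothelial markers, the sums were 14.17, 10.47 and 18.58 against 42.30, 15.42 and 21.42, with VWF the most abundant (mean 15.24), EMCN listed at 0 and 1 of the 6 tested. For 8 immune cell markers, they were 234.8, 285.0 and 272.5 against 233.5, 263.1 and 316.7, almost all from CD68 (mean 242.7), with PTPRC listed at 0 and 1 of the 8 tested. The 6 neural markers, of which 3 were tested, summed to 5332, 5614 and 6038 in Control and 5076, 4200 and 2997 with DCC-2036. Most of that signal was TUBB3 (mean 4593), a tubulin that many tumour lines make, with RBFOX3, GFAP and NCAM1 near or under 10. TUBB3 was lower without overlap, with means of 5456 and 3730, MAP2 was higher without overlap (169.3 and 307.3), SYN1 had means of 24.67 and 36.06, and none of them was called. Whether these cells or genes had a part in the results on the EPH family was not tested. In bulk RNA, fewer cells that make a transcript and less of it per cell cannot be told apart.

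Within the DCC-2036 group, replicates 1 and 3 lay farther from the mean of the other libraries than replicate 2 did. The median gene of DCC-2036 replicate 1 lay 0.287 (log2) from the mean of the other two libraries, and that of replicate 3 lay 0.311 from it, against 0.103 for replicate 2 and 0.115, 0.089 and 0.108 for the Control libraries. The median SD within the group was 0.228 on the log2 scale with DCC-2036 and 0.101 in Control. Among the 10 EPH and ephrin genes, replicate 3 was the lowest of the 3 DCC-2036 libraries for 7 genes, and replicate 1 was the highest for 5. In those 5, EPHA1, EPHB2, EPHB4, EFNA4 and EFNB2, replicate 2 lay between replicates 1 and 3. For the 10 genes, each call that changes when one of these libraries is left out is given with the value without it.

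Of the 10 genes, EFNB1 rose with DCC-2036 and EPHB2 and EFNA4 fell, at an adjusted p under 0.01 (limma on log2 of the value plus 1, adjusted by the Benjamini-Hochberg method, BH, over all 12725 genes tested). That is 30% of the 10 genes called, beside 41.9% of all genes tested, 19.2% called higher and 22.7% called lower. At an adjusted p under 0.05, 6 of the 10 passed, 2 of them higher and 4 lower, beside 62.2% of all genes. The same 6 had groups without overlap between the 3 Control and the 3 DCC-2036 values, beside 71.1% of all genes. Each of these shares of the 10 lies near or under that of all genes, so the number of genes that changed is no result about the family. The median log2 fold change of the 10 was -0.06 and that of all genes -0.09. With the libraries scaled to equal totals, the median of all genes moved to -0.29 and the share of called genes that were higher moved from 45.8% to 32.7%, and the median of the 10 was then -0.25. With scaling by the median of ratios, the median of the 10 turned to 0.02, beside -0.01 for all genes. The exact permutation test (two-sided) gave p = 0.1 for each of the 6 genes without overlap, p = 0.7 for EPHA2 and p = 0.4 for EPHA4, EPHB3 and EFNB2.

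**Figure D1:**
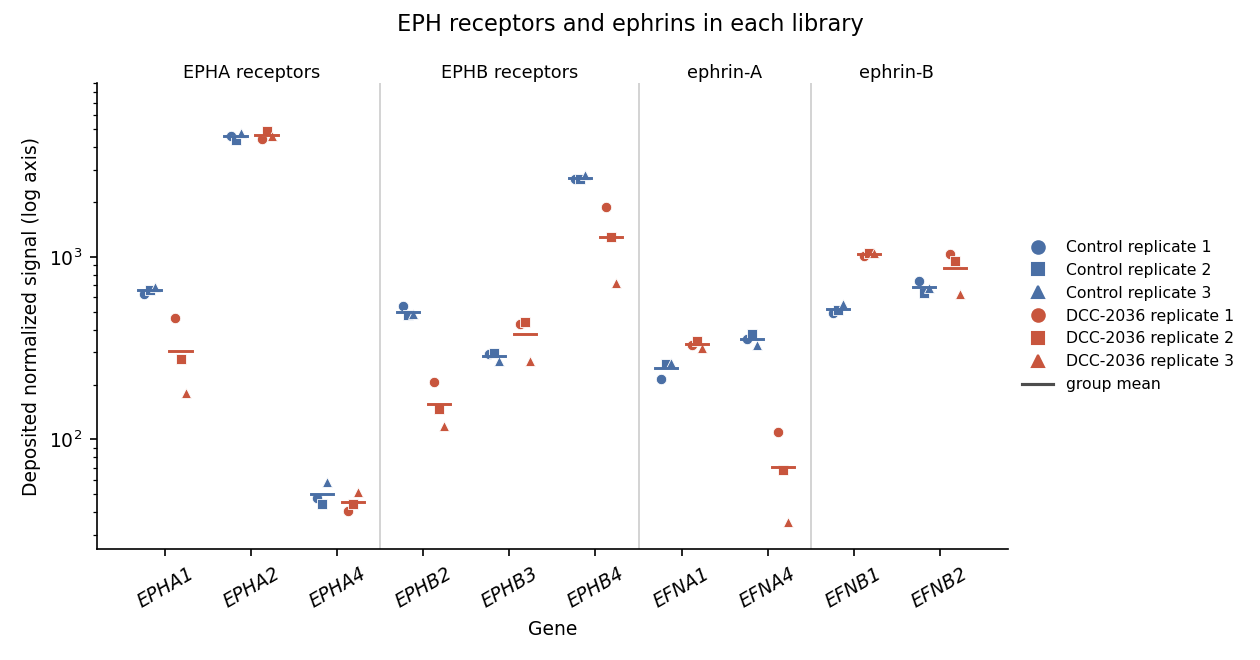
Normalized signal of each EPH receptor and ephrin gene (log axis) in the 3 Control and 3 DCC-2036 libraries, one point per library, with the mean of each group as a bar. The DCC-2036 points of EPHB2, EFNA4, EPHA1 and EPHB4 lie under all Control points, those of EFNB1 and EFNA1 above them, and those of EPHA2, EPHA4, EPHB3 and EFNB2 overlap them.

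**Figure D2:**
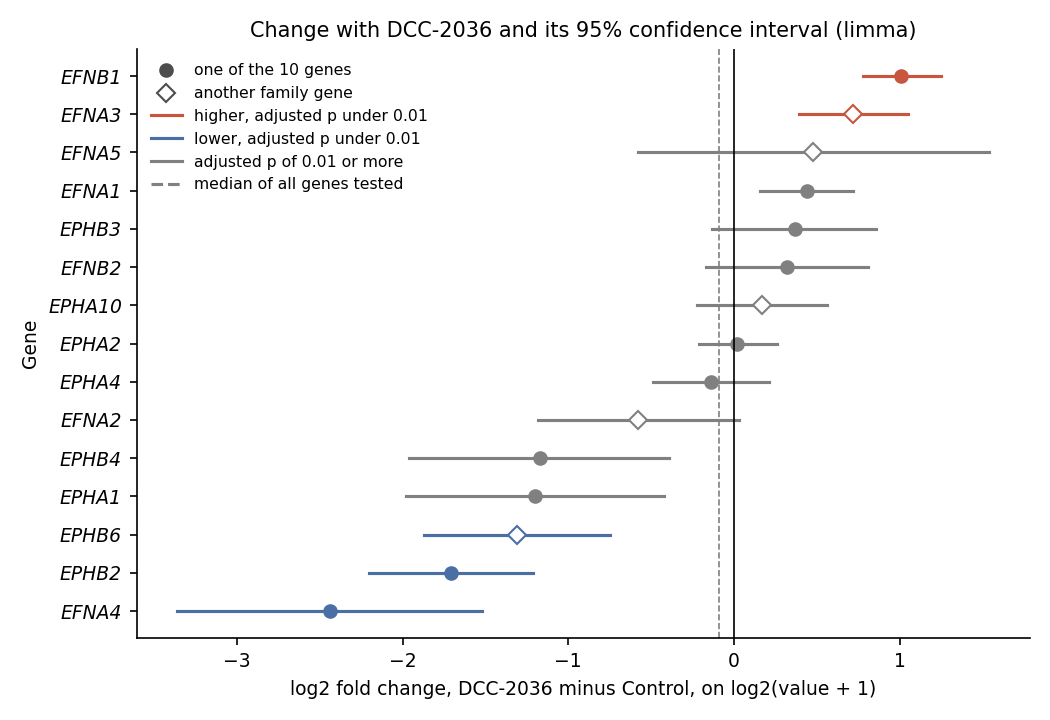
Log2 fold change (DCC-2036 minus Control, limma) of the tested EPH and ephrin genes, with the 95% confidence interval as a line and calls at an adjusted p under 0.01 in colour. EFNA4 has the lowest value, -2.44, and EFNB1 the highest, 1.01, while the interval of EPHA2 spans 0.

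Among the EPHA receptors, EPHA1 stood at 624.3, 655.9 and 687.6 in Control and at 462.1, 277.2 and 179.6 with DCC-2036. All 3 DCC-2036 values were lower than every Control value, with replicate 1 nearest to Control and replicate 3 farthest from it. The mean went from 655.9 ± 31.7 (SD, n = 3) to 306.3 ± 143, or 46.7% of Control. EPHA1 thus had a log2 fold change of -1.20, with 0.32 as its standard error (SE) and a 95% confidence interval (CI) from -1.98 to -0.42, which missed the limit (limma, BH-adjusted p = 0.0176). Without DCC-2036 replicate 1 it was -1.55 and was called (limma, BH-adjusted p = 0.00143), and without replicate 3 it was -0.87. With a trend in limma it was also called (BH-adjusted p = 0.00607), and over all 18 alternatives the adjusted p ran up to 0.0562 (limma, BH). EPHA1 lies on the reverse strand of chromosome 7, chr7:143390289-143408892 in GENCODE 29 (GRCh38), where ZYX and the antisense gene EPHA1-AS1 overlap it on the other strand. The deposited table names no genome build and does not say how reads in such overlaps were assigned.

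EPHA2, a receptor that many carcinomas make in quantity, was read at 4570, 4384 and 4760 in Control and at 4434, 4884 and 4619 with DCC-2036. The groups overlapped over most of their range. The means were 4571 ± 188 and 4646 ± 226 (SD, n = 3 each), and the log2 fold change was 0.02 (95% CI from -0.21 to 0.26; limma, BH-adjusted p = 0.846). Its sign turned with scaling to equal totals, to -0.18, and without Control replicate 2 or DCC-2036 replicate 2, to -0.01 each. Changes inside that interval could not be seen with these libraries. EPHA4 was far lower, at 47.91, 44.60 and 58.14 in Control and 40.49, 44.40 and 51.34 with DCC-2036. Here too the groups overlapped. For EPHA4 the log2 fold change was -0.14 (95% CI from -0.49 to 0.21; limma, BH-adjusted p = 0.428), with the means at 50.22 ± 7.06 and 45.41 ± 5.5. With 1 library left out it ran from -0.23 (without DCC-2036 replicate 3) to -0.03 (without Control replicate 3), it was -0.33 with equal totals, and EPHA4 was called in none of these.

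EPHB2 fell more than any other receptor gene of the 10. It was read at 535.1, 482.8 and 485.9 in Control and at 206.1, 146.2 and 118.0 with DCC-2036. All 3 DCC-2036 values lay far under the lowest Control value. From 501.3 ± 29.3 (SD, n = 3) the mean went to 156.8 ± 45, which is 31.3% of Control. This gave EPHB2 a log2 fold change of -1.71 (SE 0.21, 95% CI from -2.20 to -1.21; limma, BH-adjusted p = 0.001). Over the 18 alternatives run, it lay between -1.92 and -1.52 and was called in each (limma, BH-adjusted p from 0.000165 to 0.00696). Without DCC-2036 replicate 1 it was -1.92 and without replicate 3 it was -1.52. EPHB2 lies on the forward strand at chr1:22710839-22921500 (GENCODE 29, GRCh38). The antisense gene AL512444.1 and MIR4253 overlap it on the other strand, and MIR4684 on the same strand.

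EPHB3, the other EPHB receptor known as a Wnt target, did not follow EPHB2. Its values were 294.3, 298.6 and 268.6 in Control and 429.2, 441.3 and 268.4 with DCC-2036. Replicates 1 and 2 were higher than every Control value, and replicate 3 was just under the lowest of them. The means were 287.2 ± 16.2 and 379.6 ± 96.5 (SD, n = 3 each), and the log2 fold change was 0.37 (SE 0.21, 95% CI from -0.13 to 0.86; limma, BH-adjusted p = 0.161). Without DCC-2036 replicate 3 it was 0.60 and was called (limma, BH-adjusted p = 0.00324), while without replicate 2 it was 0.24 and with equal totals 0.17 (limma, BH-adjusted p = 0.396 and 0.553). The intervals of EPHB2 and EPHB3 do not overlap, while the difference between these genes was not itself tested. EPHB3 lies on the forward strand at chr3:184561784-184582409, with no overlapping gene in GENCODE 29. The promoters of EPHB2 and EPHB3 are shown because both are known as Wnt targets and their values went apart. They are from RefSeq on build GRCh38.p14, forward strand, from 250 bases before the start to 50 after it, at chr1:22710588-22710887 for EPHB2 and chr3:184561535-184561834 for EPHB3. Capitals mark the letters GGGCGG on either strand, the core of a GC box, with 1 match in EPHB2 and 3 in EPHB3. GC content was 83.0% and 69.0%, and neither window held the letters CTTTGAT, which TCF/LEF factors bind. No match says only that these letters are not in this window.
EPHB2: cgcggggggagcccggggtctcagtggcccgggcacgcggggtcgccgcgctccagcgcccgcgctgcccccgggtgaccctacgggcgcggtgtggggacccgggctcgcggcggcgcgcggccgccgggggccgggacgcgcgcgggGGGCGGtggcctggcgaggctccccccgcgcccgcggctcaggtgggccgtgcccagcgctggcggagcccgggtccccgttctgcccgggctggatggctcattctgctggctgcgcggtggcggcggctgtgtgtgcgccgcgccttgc
EPHB3: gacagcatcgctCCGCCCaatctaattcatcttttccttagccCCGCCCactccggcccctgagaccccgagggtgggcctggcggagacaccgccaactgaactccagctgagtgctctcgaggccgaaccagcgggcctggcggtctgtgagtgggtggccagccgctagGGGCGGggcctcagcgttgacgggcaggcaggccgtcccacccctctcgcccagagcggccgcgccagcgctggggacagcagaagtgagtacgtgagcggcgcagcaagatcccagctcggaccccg

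EPHB4, the receptor best known for its pairing with EFNB2 in blood vessels, was read at 2674, 2662 and 2802 in Control and at 1871, 1285 and 722.8 with DCC-2036. All DCC-2036 values were lower than all Control values, and they differed among themselves by more than the gap to Control. The means were 2713 ± 77.3 and 1293 ± 574 (SD, n = 3 each), or 47.7% of Control. On the log2 scale the fold change of EPHB4 was -1.17 (SE 0.33, 95% CI from -1.96 to -0.39), which missed the limit for a call (limma, BH-adjusted p = 0.02). EPHB4 was called without DCC-2036 replicate 1 (-1.49; limma, BH-adjusted p = 0.00338) and without replicate 3 (-0.81; limma, BH-adjusted p = 0.00864), and with a trend in limma (BH-adjusted p = 0.00628). Over all 18 alternatives its adjusted p ran from 0.00338 to 0.0605 (limma, BH). EPHB4 lies on the reverse strand at chr7:100802565-100827521, where SLC12A9 overlaps it on the other strand.

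EFNA4, a ligand of EPHA receptors, had the lowest log2 fold change of the whole family. Its values were 353.5, 379.5 and 327.5 in Control and 109.6, 68.24 and 35.12 with DCC-2036. All DCC-2036 values lay far under the lowest Control value, and those of replicates 1 and 3 were far apart. The mean went from 353.5 ± 26 (SD, n = 3) to 70.99 ± 37.3, or 20.1% of Control. This put the log2 fold change of EFNA4 at -2.44 (SE 0.38, 95% CI from -3.36 to -1.52; limma, BH-adjusted p = 0.00238). It was -2.82 without DCC-2036 replicate 1 and -2.02 without replicate 3, and was called in both. The call was lost without Control replicate 1, 2 or 3 and without DCC-2036 replicate 2 (limma, BH-adjusted p = 0.012, 0.0117, 0.0112 and 0.0104), with the value between -2.49 and -2.39. Over all 18 alternatives the adjusted p ran from 0.000441 to 0.012 (limma, BH).

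EFNA1, the second ephrin-A ligand of the 10 and a partner of EPHA2, was read at 215.2, 259.2 and 261.5 in Control and at 329.8, 348.4 and 318.0 with DCC-2036. Every DCC-2036 value was higher than every Control value. The means were 245.3 ± 26.1 and 332.0 ± 15.3 (SD, n = 3 each), or 135% of Control. For EFNA1 the log2 fold change was 0.44 (SE 0.12, 95% CI from 0.16 to 0.72) and was not called (limma, BH-adjusted p = 0.0171). With scaling by the median of ratios it was 0.52 and was called (limma, BH-adjusted p = 0.00968), and with equal totals it was 0.24 (limma, BH-adjusted p = 0.111).

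EFNA4, EFNA3 and EFNA1 lie one after another on the forward strand of chromosome 1, at chr1:155063731-155069553, chr1:155078872-155087538 and chr1:155127460-155134857 (GENCODE 29, GRCh38). EFNA3, which is not among the 10, was read at 448.3, 548.9 and 577.2 in Control and at 803.7, 943.5 and 837.4 with DCC-2036. It was higher in all 3 DCC-2036 libraries than in any Control library. EFNA3 rose by 0.72 on the log2 scale (95% CI from 0.39 to 1.05; limma, BH-adjusted p = 0.00461). The call was lost with equal totals (0.52; limma, BH-adjusted p = 0.0127), with no filter on low values (limma, BH-adjusted p = 0.0112), and without Control replicate 1, 2 or 3 or DCC-2036 replicate 2 (limma, BH-adjusted p = 0.0165, 0.0177, 0.0127 and 0.022). Of these neighbours, EFNA4 therefore fell and EFNA3 rose. In GENCODE 29, AL691442.1 overlaps both EFNA4 and EFNA3 on the same strand, and how reads shared with it were assigned is not known. Their promoters are shown because genes so close together moved in opposite directions. They are from RefSeq, build GRCh38.p14, forward strand, at chr1:155063490-155063789 for EFNA4, chr1:155078587-155078886 for EFNA3 and chr1:155127626-155127925 for EFNA1. The RefSeq start used for EFNA1 lies after the GENCODE 29 start given above, so its whole window is inside the gene as placed by GENCODE 29. Capitals again mark GGGCGG on either strand, with 2 matches in EFNA4, 2 in EFNA3 and 5 in EFNA1, where a pair of matches shares a letter. GC content was 58.3%, 69.3% and 71.7% in that order.
EFNA4: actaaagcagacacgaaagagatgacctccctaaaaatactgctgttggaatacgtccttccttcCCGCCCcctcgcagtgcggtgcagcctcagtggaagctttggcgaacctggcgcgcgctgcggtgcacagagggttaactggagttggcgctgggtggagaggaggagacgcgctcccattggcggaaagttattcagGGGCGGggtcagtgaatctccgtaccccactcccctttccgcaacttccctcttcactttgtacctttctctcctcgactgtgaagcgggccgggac
EFNA3: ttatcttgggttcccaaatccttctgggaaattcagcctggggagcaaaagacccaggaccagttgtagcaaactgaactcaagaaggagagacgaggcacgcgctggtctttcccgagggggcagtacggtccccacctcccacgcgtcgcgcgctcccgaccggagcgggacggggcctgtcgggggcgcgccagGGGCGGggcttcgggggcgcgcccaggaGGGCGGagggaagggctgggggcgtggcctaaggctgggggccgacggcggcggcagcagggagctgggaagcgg
EFNA1: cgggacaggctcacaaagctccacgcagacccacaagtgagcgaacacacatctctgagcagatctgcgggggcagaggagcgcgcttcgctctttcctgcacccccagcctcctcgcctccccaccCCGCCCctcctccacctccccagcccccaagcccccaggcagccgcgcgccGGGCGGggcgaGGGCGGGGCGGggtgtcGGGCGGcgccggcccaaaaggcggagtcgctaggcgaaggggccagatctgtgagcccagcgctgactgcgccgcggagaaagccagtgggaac

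Around these ephrin-A genes, 13 genes of the table start within 100 kb of the start of EFNA3, a window chosen after the values had been seen, and 10 of them were tested. ADAM15, a membrane protease gene whose start is at -28.3 kb from that of EFNA3, stood at 1305, 1255 and 1341 in Control and at 1895, 2217 and 2371 with DCC-2036. It rose by 0.73 on the log2 scale (limma, BH-adjusted p = 0.00266), a call lost without any one Control library or DCC-2036 replicate 2 (limma, BH-adjusted p from 0.0129 to 0.016). FLAD1, which makes the cofactor FAD and starts at -95.5 kb, was read at 896.1, 880.6 and 906.6 in Control and at 266.4, 235.9 and 184.8 with DCC-2036 (log2 fold change -1.98, limma, BH-adjusted p = 0.000287). TRIM46, on the far side at 94.9 kb, went from a mean of 104.8 to 48.38 (log2 fold change -1.11, limma, BH-adjusted p = 0.00247). That call was lost without Control replicate 1, 2 or 3 (limma, BH-adjusted p = 0.0123, 0.0106 and 0.0109). EFNA4 thus lay between genes called higher, ADAM15 and EFNA3, with genes called lower further out. Over all genes tested, 41.9% were called, 19.2% higher and 22.7% lower. Calls in both directions in a window of 10 tested genes are therefore no result about this region. ZBTB7B (-0.61), SLC50A1 (0.22), DPM3 (-0.17) and KRTCAP2 (-0.40) were not called, though ZBTB7B was without DCC-2036 replicate 1 (-0.89; limma, BH-adjusted p = 0.00252) and KRTCAP2 with equal totals (-0.59; limma, BH-adjusted p = 0.00547), and LENEP, DCST1 and DCST2 were too low to test.

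**Figure D3:**
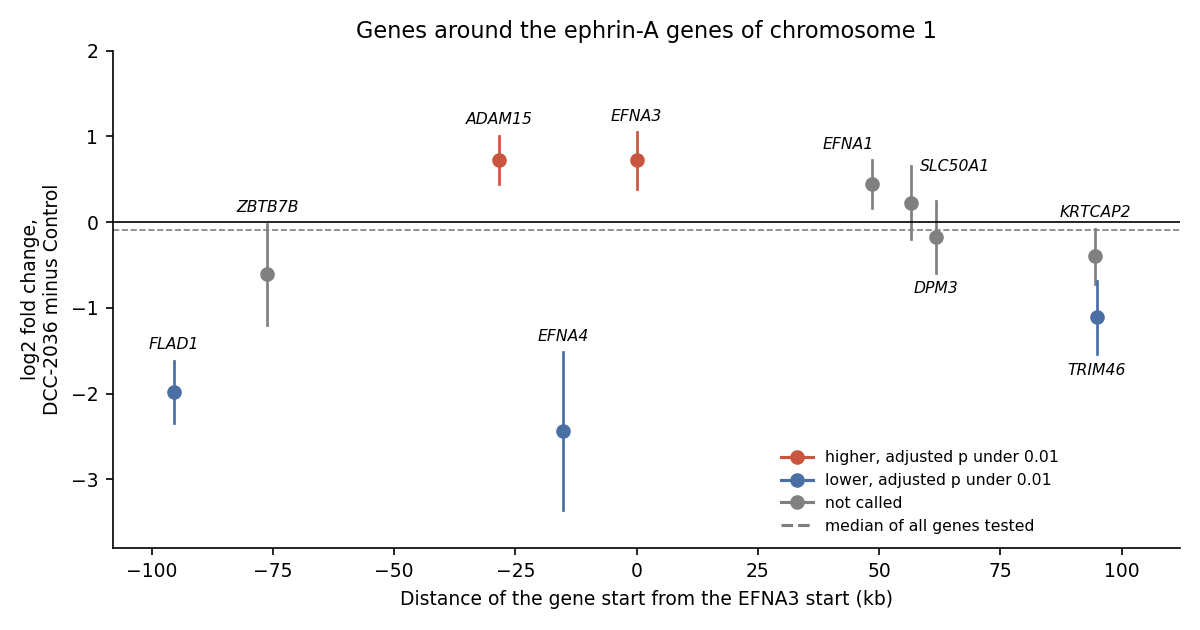
Log2 fold change (DCC-2036 minus Control, limma) with its 95% confidence interval for the tested genes whose start lies within 100 kb of the start of EFNA3, by distance in kb. EFNA4 lies far under 0 at -2.44, between ADAM15 (0.73) and EFNA3 (0.72), both above it.

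EFNB1, an ephrin-B ligand, was the gene of the 10 with the smallest p. Its values were 489.8, 509.2 and 550.5 in Control and 1012, 1055 and 1055 with DCC-2036. The 3 DCC-2036 values lay close together, and the lowest of them was well above the highest Control value. The mean went from 516.5 ± 31 (SD, n = 3) to 1041 ± 24.9, or 202% of Control. The log2 fold change was 1.01 (SE 0.10, 95% CI from 0.78 to 1.25; limma, BH-adjusted p = 0.00051). EFNB1 was called in all 18 alternatives, with values from 0.81 with equal totals to 1.09 with the median of ratios (limma, BH-adjusted p from 8.1e-05 to 0.00521). Leaving out DCC-2036 replicate 1 or 3 put the value at 1.03 or 1.00. EFNB1 lies on the forward strand at chrX:68828997-68842147 (GENCODE 29, GRCh38) and overlaps no other gene there.

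EFNB2, the ligand of EPHB4, was read at 740.1, 632.9 and 674.6 in Control and at 1032, 950.0 and 626.1 with DCC-2036. As in EPHB3, replicates 1 and 2 were above all Control values and replicate 3 was under them. The means were 682.5 ± 54.1 and 869.3 ± 214 (SD, n = 3 each), and the log2 fold change was 0.32 (SE 0.20, 95% CI from -0.17 to 0.81; limma, BH-adjusted p = 0.209). Without DCC-2036 replicate 3 it was 0.54 and was called (limma, BH-adjusted p = 0.00738), while without replicate 1 it was 0.18 and with equal totals 0.12 (limma, BH-adjusted p = 0.452 and 0.673). Neither a rise nor a lack of one can be read from EFNB2.

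Transcripts of a gene may share reads, so they are not taken as separate measurements. Of the 19 transcripts, 8 were called in a fit of all 32323 transcripts that passed the filter, in which 42.2% were called. They were the 4 transcripts of EPHB2, with log2 fold changes from -1.72 to -1.69, the 3 of EFNA4, from -2.44 to -2.29, and the 1 of EFNB1. In EPHB2, the further transcripts stood at 99.3%, 92.9% and 89.2% of the highest, in EFNA4 at 68% and 66.6%, and in EFNA1 the second one at 72.8%. The EPHA2 transcripts had values of 0.00 and 0.02, those of EPHA4 ran from -0.23 to -0.14, and those of EFNA1 were 0.35 and 0.44, none called. EPHA1, EPHB3, EPHB4 and EFNB2 have 1 transcript each in the table.

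Levels between the 10 genes were compared as signal per kilobase of transcript, with lengths from GENCODE 29. This takes the deposited signal as not yet divided by length, which the sources do not state. In the table, EPHB2 transcripts of 10816 and 3677 bases had Control means of 464.8 and 501.3. In Control, EPHA2 was the highest of the 10 at 1119 ± 48.2 (SD, n = 3) per kilobase, followed by EPHB4 at 627 ± 17.9, EFNA4 at 280 ± 20.6 and EPHA1 at 195 ± 9.42. Next per kilobase came EFNB1 at 156 ± 9.35, EFNB2 at 153 ± 12.1, EPHB2 at 136 ± 7.98 and EFNA1 at 127 ± 13.5, whose neighbours in this order overlapped. EPHB3 at 67.8 ± 3.83 and EPHA4 at 7.91 ± 1.11 per kilobase closed the order. For EPHA2 the length and signal are those of its second transcript, since the first had no match in GENCODE 29. Among the 10 with DCC-2036, EPHA2 stayed on top at 1118 ± 60.6 per kilobase, and EFNB1 at 314 ± 7.51 came next, overlapping EPHB4 at 299 ± 133. EFNB2 at 195 ± 48.1 and EFNA1 at 172 ± 7.97 per kilobase followed, then EPHA1 at 91.1 ± 42.7, EPHB3 at 89.6 ± 22.8, EFNA4 at 56.2 ± 29.6 and EPHB2 at 42.6 ± 12.2. EPHA4 was again the lowest at 7.16 ± 0.866 per kilobase. In the DCC-2036 order, neighbours overlapped from EFNB1 to EFNA1 and from EPHA1 to EPHB2. Within the 10, EFNA4 thus went from the third place to the eighth, and EFNB1 from the fifth to the second. EFNA3, outside the 10, would stand right above EFNA4 in Control at 295 ± 38, overlapping it, and right after EPHA2 with DCC-2036 at 483 ± 40.9 per kilobase.

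Summed per kilobase over EPHB2, EPHB3 and EPHB4, the signal was 832.7, 816.8 and 842.7 in Control and 589.7, 440.7 and 262.4 with DCC-2036. The EPHB sum was lower in all 3 DCC-2036 libraries, at 51.9% of the Control mean. Their ligands EFNB1 and EFNB2 together gave 313.7, 295.5 and 317.3 per kilobase in Control and 536.7, 531.4 and 458.8 with DCC-2036, 165% of Control and without overlap. In DCC-2036 replicates 2 and 3 the ephrin-B sum was above the EPHB sum per kilobase, and in replicate 1 and in all Control libraries it was under it. The EPHA sum of EPHA1, EPHA2 and EPHA4 was 1305.9, 1277.0 and 1384.3 per kilobase in Control and 1210.9, 1274.6 and 1164.1 with DCC-2036. All 3 were lower there, by a small margin for replicate 2, and the mean was 92% of Control. Over all 9 EPHA genes of the family the groups overlapped, with DCC-2036 replicate 2 at 1297.5 and Control replicate 2 at 1293.2 per kilobase. EFNA1 and EFNA4 were together lower in every DCC-2036 library than in any Control library, with 258.0, 234.9 and 192.9 per kilobase against 391.6, 435.0 and 395.1. With EFNA2, EFNA3 and EFNA5 added, the ephrin-A mean per kilobase was 905.5 in Control and 853.9 with DCC-2036, or 94.3%. Within the EPHB sum, the share of EPHB3 went from a mean of 8.2% to 21.7%, that of EPHB2 from 16.4% to 10.3% and that of EPHB4 from 75.4% to 68.1%. EFNA4 went from 68.7% to 23.7% of its pair with EFNA1, and EFNB1 from 50.5% to 62.1% of its pair with EFNB2. EPHA2 made up 84.7% of the EPHA sum in Control and 91.9% with DCC-2036. Sums and shares are given as a description, without a test.

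**Figure D4:**
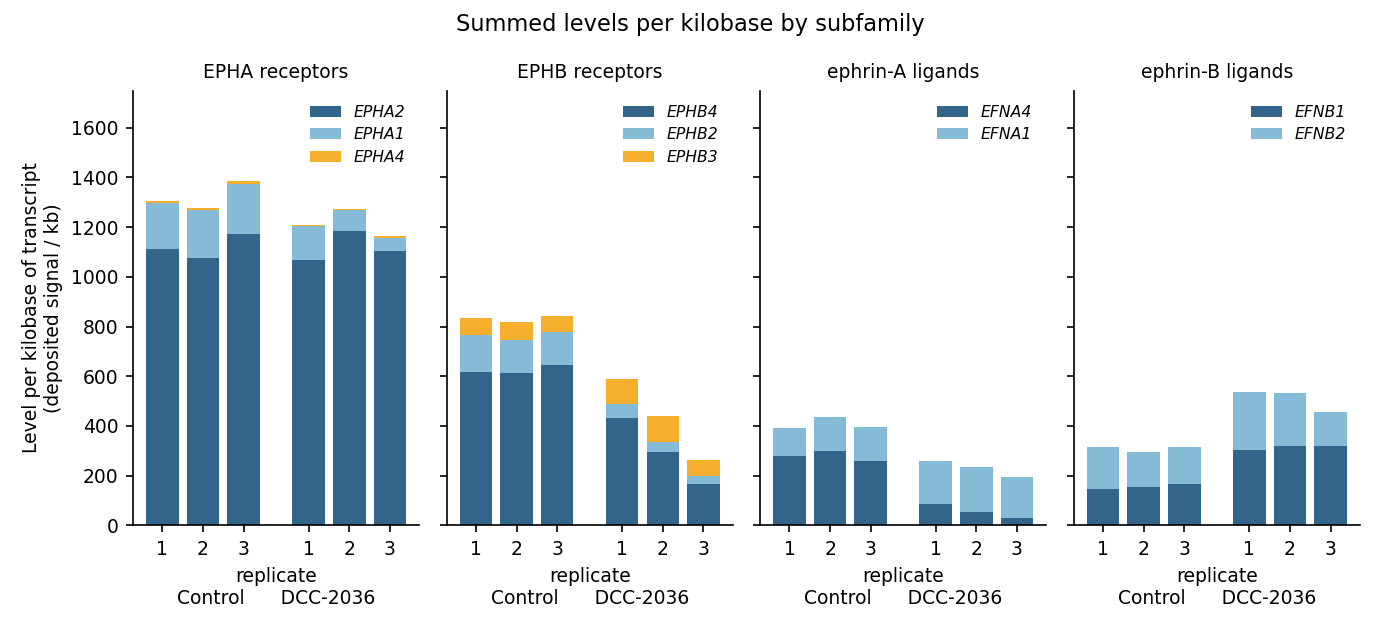
Signal per kilobase summed over the EPHA, EPHB, ephrin-A and ephrin-B genes among the 10, in each of the 3 Control and 3 DCC-2036 libraries, with the genes stacked. The EPHB bars shrink from 832.7, 816.8 and 842.7 to 589.7, 440.7 and 262.4, while the ephrin-B bars grow from 313.7, 295.5 and 317.3 to 536.7, 531.4 and 458.8.

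In the rest of the family, EPHB6 and EFNA3 were called, which with the 3 above makes 2 genes higher and 3 lower of the 15 tested (33.3% called, beside 41.9% of all genes). EPHB6, a receptor whose kinase domain is inactive, was read at 230.5, 210.7 and 197.8 in Control and at 121.1, 80.21 and 64.04 with DCC-2036. It was lower in every DCC-2036 library than in any Control library. The log2 fold change of EPHB6 was -1.31 (SE 0.23; limma, BH-adjusted p = 0.00374), and the call was lost without Control replicate 1, 2 or 3 or DCC-2036 replicate 2 (limma, BH-adjusted p = 0.0182, 0.0161, 0.0147 and 0.0171). EPHB2, EPHB4 and EPHB6 were thus lower without overlap and EPHB3 was not. EFNA2 had a log2 fold change of -0.58 (95% CI from -1.18 to 0.03; limma, BH-adjusted p = 0.088) and EFNA5, near the filter, one of 0.48 (95% CI from -0.58 to 1.54; limma, BH-adjusted p = 0.37). EPHA10, another receptor without kinase activity, had one of 0.17 (95% CI from -0.22 to 0.56; limma, BH-adjusted p = 0.385), which turned to -0.03 with equal totals. Without DCC-2036 replicate 1 or 3, EFNA5 was at 0.05 or 0.88 and EFNA2 at -0.78 or -0.32, none of them called. Leaving out Control replicate 1 or 3 put EFNA5 at 0.73 or 0.28, and EPHA10 ran from 0.09 without Control replicate 2 to 0.29 without Control replicate 1. The values of EFNA2, EFNA5 and EPHA10 overlapped between the groups. EPHA3, EPHA5, EPHA6, EPHA7, EPHA8, EPHB1 and EFNB3 stayed under 10 in all 6 libraries and were not tested.

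Genes that act with EPH receptors were taken from lists written from general knowledge, with earlier results of these data known. Among 15 guanine nucleotide exchange factors and GTPase activators that EPH receptors use to steer small GTPases, 13 were tested, with 2 called higher and 3 lower (38.5% called, beside 41.9% of all genes) and a median log2 fold change of -0.38. CHN2, a chimaerin that switches RAC off, was among the 3 called lower, but it passed the filter through Control alone. Its call is therefore not read as a result. The means of CHN2 were 21.63 ± 3.61 (SD, n = 3) in Control and 6.59 ± 1.23 with DCC-2036 (log2 fold change -1.58). ARHGEF19 fell from 1957 ± 64.5 to 849.5 ± 263 (log2 fold change -1.25, limma, BH-adjusted p = 0.00367). NGEF (ephexin), the exchange factor bound by EPHA4, went from 84.28 ± 4 to 42.49 ± 12.3 (log2 fold change -1.01, limma, BH-adjusted p = 0.00621). ITSN2 rose from 691.9 ± 25.2 to 1105 ± 82.5 (log2 fold change 0.67, limma, BH-adjusted p = 0.00226), and RASA1 was also called higher. The DCC-2036 values of CHN2 were 5.21, 7.55 and 7.02, and with a pseudocount of 10 its log2 fold change was -0.93. NGEF, ARHGEF19, ITSN2 and RASA1 lost their calls without any one Control library or DCC-2036 replicate 2 (limma, BH-adjusted p from 0.0121 to 0.0337), and NGEF and RASA1 also without DCC-2036 replicate 3 (limma, BH-adjusted p = 0.0135 and 0.0137).

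Among 19 adaptors, kinases and further partners that bind or follow activated EPH receptors, many of them with SH2 or SH3 domains, 18 were tested, with 7 called higher and 3 lower (55.6% called, beside 41.9% of all genes) and a median of 0.42. INPPL1 (SHIP2), a lipid phosphatase that binds EPHA2 and slows its uptake into the cell, fell from 1208 ± 47 (SD, n = 3) to 388.7 ± 101 (log2 fold change -1.67, limma, BH-adjusted p = 0.000893). CRK fell from 1989 ± 106 to 805.8 ± 330 (log2 fold change -1.39, limma, BH-adjusted p = 0.00868), while its relative CRKL rose from 2827 ± 115 to 6854 ± 1353 (limma, BH-adjusted p = 0.00122). GRB2 rose from 5401 ± 276 to 14098 ± 2919 (log2 fold change 1.36, limma, BH-adjusted p = 0.00102), and GRB7, an adaptor that binds EPHB1, fell from 333.2 ± 38 to 129.4 ± 17.8 (log2 fold change -1.36, limma, BH-adjusted p = 0.000702). NCK1, NCK2, FYN, LYN and AFDN were called higher too. The calls of CRK, NCK2, FYN and AFDN were lost without any one Control library or DCC-2036 replicate 2 (limma, BH-adjusted p from 0.0138 to 0.0326), and that of LYN without Control replicate 1 (limma, BH-adjusted p = 0.0102). ABL1, a target of DCC-2036 and itself on the list, had a log2 fold change of 0.36 and was not called (limma, BH-adjusted p = 0.0467). Without DCC-2036 replicate 3 ABL1 was called at 0.48 (limma, BH-adjusted p = 0.00577), where its adjusted p over the other alternatives ran up to 0.373 with equal totals.

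Of 10 phosphatases, ubiquitin ligases and proteases that end EPH signalling, 9 were tested, with 5 called higher, 0 lower (55.6% called, beside 41.9% of all genes) and a median of 0.48. ADAM17, a protease of the cell surface, rose from 843.0 ± 34.4 (SD, n = 3) to 1795 ± 232 (log2 fold change 1.08, limma, BH-adjusted p = 0.000848). ACP1, which removes phosphate from EPHA2, rose from 1273 ± 67.3 to 2273 ± 319 (limma, BH-adjusted p = 0.00243), and PTPN1 rose from 1715 ± 93.2 to 2880 ± 129 (limma, BH-adjusted p = 0.00136). CBLB rose from 95.20 ± 7.63 to 153.0 ± 6.78 (limma, BH-adjusted p = 0.00233), while its relative CBL had a log2 fold change of -0.01 whose sign varied with the setting, from -0.21 with equal totals to 0.09 without DCC-2036 replicate 3. PTPRJ was the remaining call. ACP1, PTPRJ and CBLB lost theirs without Control replicate 2 or 3 or DCC-2036 replicate 2, ACP1 and PTPRJ without Control replicate 1 and PTPRJ without DCC-2036 replicate 1 (limma, BH-adjusted p from 0.0113 to 0.0475). ADAM10, which cuts ephrins after receptor binding, had a log2 fold change of -0.14 (limma, BH-adjusted p = 0.5). Its sign held under every scaling and turned to 0.04 without DCC-2036 replicate 3.

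Of 7 genes with PDZ domains or similar links that carry ephrin-B reverse signalling, 6 were tested, with 1 called higher and 1 lower (33.3% called, beside 41.9% of all genes) and a median of -0.32. PICK1, which binds the tail of ephrin-B ligands, fell from 541.8 ± 65.3 (SD, n = 3) to 261.4 ± 54.2 (log2 fold change -1.06, limma, BH-adjusted p = 0.003). TJP1, a tight junction scaffold, rose from 2455 ± 74.6 to 3831 ± 523 (log2 fold change 0.63, limma, BH-adjusted p = 0.00584). Both calls were lost without any one Control library or DCC-2036 replicate 2 (limma, BH-adjusted p from 0.0113 to 0.0271). PARD6A, a polarity factor that binds EFNB1, was lower without overlap at a log2 fold change of -1.38 (limma, BH-adjusted p = 0.0127) and was not called. It was called without DCC-2036 replicate 1 (-0.98), with equal totals (-1.57), with a value of 10 asked of every library, with a pseudocount of 10 (-1.13) and with a trend in limma (BH-adjusted p = 0.0021, 0.00658, 0.00908, 0.00603 and 0.00783).

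With earlier results of these data known, EPHB2 and EPHB3 were set beside 12 other genes known as targets of Wnt signalling. Of these, 9 were tested, with 7 called higher and 1 lower (88.9% called, beside 41.9% of all genes) and a median log2 fold change of 0.83. EPHB2 was called lower. AXIN2 stood at 8301 ± 908 (SD, n = 3) with DCC-2036 against 1257 ± 27.6 in Control (log2 fold change 2.72, limma, BH-adjusted p = 0.000178), and SP5 at 75.16 ± 11.8 against 16.71 ± 1.01 (2.10; limma, BH-adjusted p = 0.000216). ZNRF3 rose from 924.3 ± 39.9 to 1833 ± 216 (0.98; limma, BH-adjusted p = 0.00109). TCF7 was the Wnt target called lower beside EPHB2, from 681.8 ± 24.7 to 340.0 ± 105 (-1.05; limma, BH-adjusted p = 0.00834). RNF43, CD44, NOTUM and SOX9 were called higher, and NKD1 had a log2 fold change of 0.78 without a call (limma, BH-adjusted p = 0.0563). Without DCC-2036 replicate 3 NKD1 was called at 1.10 (limma, BH-adjusted p = 0.00291), and without replicate 1 it was 0.53 (limma, BH-adjusted p = 0.118). LGR5 was listed at 0 in all libraries, and ASCL2 and LEF1 stayed under 10. Without any one Control library or DCC-2036 replicate 2, RNF43, NOTUM, TCF7 and SOX9 lost their calls, CD44 did so without Control replicate 2 or 3, and RNF43 also without DCC-2036 replicate 1 (limma, BH-adjusted p from 0.0104 to 0.0318). Over all 5 lists, the median kept its sign under each scaling. With equal totals, 22 of the 30 called genes kept their call, and RASA1, NCK2, AFDN, PTPRJ, CBLB, TJP1, RNF43 and NOTUM lost it. From 12 to 28 of the 30 kept it with 1 library left out. With no filter on low values, NGEF, RASA1, CRK, FYN, AFDN, PTPRJ, TJP1, RNF43, NOTUM, TCF7 and SOX9 lost their calls (limma, BH-adjusted p from 0.0104 to 0.0211), and CRK, RASA1 and TCF7 did so with transcripts summed (limma, BH-adjusted p = 0.0119, 0.0104 and 0.0113).

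**Figure D5:**
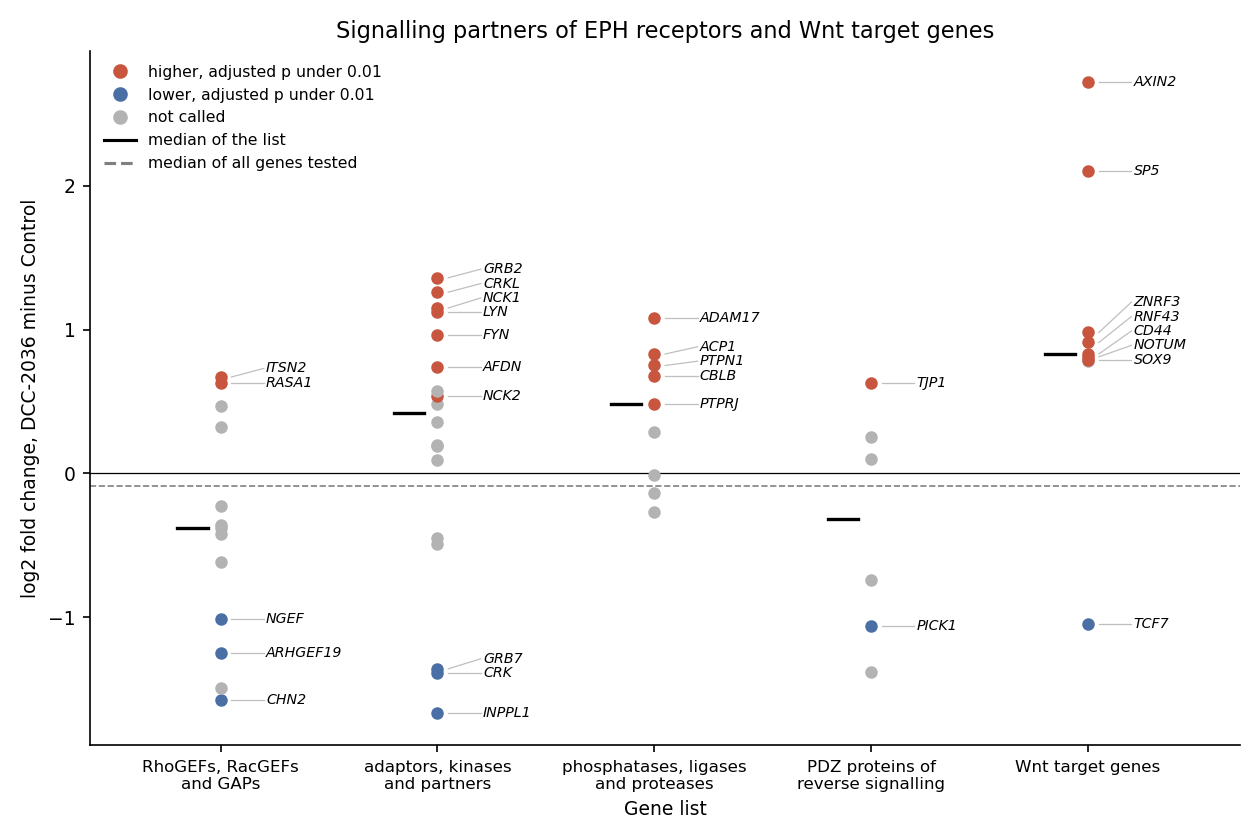
Log2 fold change (DCC-2036 minus Control, limma) of each tested gene in 5 lists around EPH signalling, one point per gene, with calls at an adjusted p under 0.01 in colour, the median of each list as a bar and the median of all genes (-0.09) as a dashed line. The Wnt targets lie mostly above 0 with AXIN2 highest at 2.72, and INPPL1 at -1.67 is the lowest of the adaptors, kinases and partners.

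For the called genes at either end of the family, the tested genes with the most similar pattern over the 6 libraries were looked up by Pearson's r of log2 of the value plus 1. For EFNB1 they were JUP (r = 0.9999, log2 fold change 1.03), MAN1B1 (0.9999, 0.54) and PMP22 (0.9997, 1.11), and 239 genes had an r of at least 0.99. For EFNA4 they were KIAA0930 (r = 0.9996, log2 fold change -1.22), TMEM19 (0.9994, -1.19) and MOB3A (0.9994, -2.33), and 413 genes had an r of at least 0.99. JUP encodes plakoglobin of the desmosome. The libraries form a pair of groups, so a high r shows mainly that 2 genes differ between the groups, and with this many genes near 1 the order among them says little.

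The promoter windows of all 10 genes, 300 bases each, were matched in RefSeq by symbol. The letters GGGCGG stood in at least one window of 10 of the 10 genes, and in 45% of the 35116 promoters of the table. GC content of the first window of each gene ran from 58.3% in EFNA4 to 83.0% in EPHB2. Here and below, genes are counted for the 10 and promoters for the whole table, without matching for GC content. The counts and shares are therefore no result about the family. CCAAT was found for 7 of the 10, EPHA1, EPHA4, EPHB3, EPHB4, EFNA4, EFNB1 and EFNB2, and in 34.6% of all promoters. TGACGTCA, which CREB and ATF factors bind, was found in EPHA2 alone of the 10 and in 1.85% of all promoters. CTTTGAT (2.62% of all promoters) and the E-box CACGTG (7.26%) were found in 0 of the 10. Both strands were searched, and EPHB2, which fell, and EFNB1, which rose, each held 1 GC box. A match is a description of letters only.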

How the data were processed

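RNA was measured in 6 libraries, 3 Control and 3 DCC-2036, and the titles of the labels gave the groups. In the deposited table each transcript has 1 normalized signal per library, brought by the authors to a common depth. It was taken as not divided by transcript length. How they did so, the aligner and the genome build are not given in the sources used here. The values are not whole numbers, so no test on counts was made, and the depth is unknown. The authors' own fold change, p and q columns hold their comparison and were not used.

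Each symbol was represented by its transcript of highest mean. Genes that reached a value of 10 in 3 or more libraries were tested with limma 3.58.1 in R 4.3.3 on log2 of the value plus 1, without covariates, two-sided. P-values were adjusted by the Benjamini-Hochberg method over the 12725 genes and called under 0.01. This scale understates changes of genes with low values. Exact permutation tests used scipy 1.17.1 in Python 3.11.15, with pandas 2.3.3, and plots were made with matplotlib 3.10.9. Lengths and positions came from GENCODE 29 through RefSeq accessions, and promoters from RefSeq, 250 bases before to 50 after each start. The code was tested on simulated data.

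Named are the 10 genes, every other gene of the family, the called genes of each pathway list (up to 4 with the largest changes in full) and, for the called gene of the 10 with the highest and the one with the lowest log2 fold change, the 3 genes with the most similar pattern. CRKL, ABL1, CBL, ADAM10, PARD6A, NKD1, LGR5, ASCL2, LEF1, ZYX, SLC12A9 and the chromosome 1 neighbours were named after their values had been seen. The genes and lists were chosen with earlier results of these data known. Alternatives were 3 scalings of the values, other filters and pseudocounts, transcripts summed, limma with a trend, a replicate block, an adjusted p under 0.05, an absolute log2 fold change of 1 or more, and each library left out in turn.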

Additional observations from a re-analysis of the deposited data

How the results depend on the processing

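EPHB2 and EFNB1 kept direction and call in all 18 alternatives. Of the 180 values of the 10 genes under these, 162 kept direction and side of the limit, 4 lost a call (EFNA4, each time with 1 library left out), 11 gained one and 3 changed sign. The sign changes were all in EPHA2, whose log2 fold change of 0.02 became -0.1752 with scaling to equal totals and ran from -0.0136 to 0.0561 with 1 library left out, never called. Among the 10 genes, the 1 called higher became 2 with scaling by the median of ratios (EFNA1 added) and 2 at an adjusted p under 0.05, and ran from 1 to 3 with 1 library left out. The 2 called lower became 4 with limma with a trend and 4 at an adjusted p under 0.05 (EPHA1 and EPHB4 added), and ran from 1 to 4 with 1 library left out. Over all genes, the 2442 called higher became 1202 with the replicate block and 944 with an absolute log2 fold change of 1 or more, and ran from 929 to 2717 with 1 library left out. The 2887 called lower became 1909 with the replicate block and ran from 1502 to 3444. The titles number the replicates without saying whether equal numbers belong together. Each library was taken as its deviation from the mean of its group. The correlation across genes between equally numbered libraries was then 0.081, -0.035 and -0.003. Between libraries of unlike number it ran from -0.06 to 0.091. With 3 libraries in each group, these values cannot settle whether the libraries were paired. The replicate block also leaves the test fewer degrees of freedom. With it, 15 of the 30 called genes of the lists around EPH signalling kept their call, and EFNA3 and ADAM15, the called genes on either side of EFNA4, lost it (limma, BH-adjusted p = 0.0115 and 0.0114). Leaving out a library also leaves fewer degrees of freedom and changes the spread. Why calls or signs changed was not tested for any of the alternatives. The depth is unknown, so intervals for counting error are lacking, and low values such as those of CHN2 with DCC-2036 may rest on few reads.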

Other observations

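In GENCODE 29, protein-coding genes overlap EPHA1 and EPHB4 on the other strand. ZYX (zyxin, a protein of focal adhesions), which overlaps EPHA1, was read at 4382, 4593 and 4891 in Control and at 3722, 3735 and 3570 with DCC-2036. All 3 DCC-2036 values of ZYX were lower than all Control values, at 79.5% of the Control mean, where EPHA1 was at 46.7%. The log2 fold change of ZYX was -0.33 (95% CI from -0.56 to -0.10; limma, BH-adjusted p = 0.0238) and was not called, though it was with equal totals (-0.53) and with a trend in limma (BH-adjusted p = 0.0052 and 0.00736). SLC12A9, a gene of the cation-chloride cotransporter family that overlaps EPHB4, was read at 565.0, 638.5 and 574.2 in Control and at 811.9, 835.4 and 687.7 with DCC-2036. It was higher without overlap, at 131% of the Control mean, where EPHB4 was lower, at 47.7%. The log2 fold change of SLC12A9 was 0.39 (95% CI from 0.10 to 0.68; limma, BH-adjusted p = 0.0284) and was not called either, except without DCC-2036 replicate 3 (0.48; limma, BH-adjusted p = 0.0083). EFNB1, EPHB3, EFNA1 and EPHB6 overlap no other gene in that annotation.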
